A study of Mus musculus with 4 samples.

Results

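The ocular surface mucins were followed in mouse eye tissue, labelled retina, from myocilin transgenic animals and from control animals. The members are all probe sets annotated with exactly 1 gene symbol among 9 mucin genes, which gave 13 of the 45101 probe sets in the table and 9 of 18193 genes with a probe set of their own. Of these, 6 genes with 10 probe sets encode membrane-bound mucins (Muc1, Muc4, Muc13, Muc15, Muc16 and Muc20) and 3 genes with 3 probe sets encode gel-forming mucins (Muc2, Muc5ac and Muc5b).

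Mucins are large glycoproteins whose serine- and threonine-rich stretches carry dense O-linked sugars. Membrane-bound mucins are anchored in the apical membrane of the corneal and conjunctival epithelium, where their extended domains form the glycocalyx that holds the tear film. Gel-forming mucins are secreted, at the ocular surface by conjunctival goblet cells, and cross-link through their cysteine-rich ends into the mucus of the tear film.

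The transgenic group comprised 2 one-colour oligonucleotide arrays from animals that carry myocilin in the fluid of the eye, the aqueous humor; myocilin is a secreted glycoprotein. The control group comprised 2 arrays, of which the labels call the second a technical replicate of the first, so it counts as 1 sample. Strain, age and the promoter of the transgene are not given in the sources used here, and the labels leave unsaid whether separate animals gave the transgenic arrays, so p-values measure only a spread that may be technical. The study asked what a high level of myocilin around the retina does to gene expression there.

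The deposited values are linear signal intensities without detection calls, on a common level: the mean signal, trimmed by 2% at each end, was 150 on every array. Precision is limited by how few arrays there are. The arrays carried strong signals of the eye surface and weak signals of rods. All 13 corneal epithelium markers with a probe set and all 10 conjunctival epithelium markers exceeded a signal of 150 in both groups. Of 9 rod photoreceptor markers, 0 did. The brightest of these, Sag, had 135 and 106 on the transgenic arrays and 148 and 148 on the control arrays, just under that level. Prph2, among the dimmest, lay at 0.994 and 2.70 on the transgenic arrays and at 7.80 and 13.2 on the control arrays. The tissue label thus stood against its defining markers, and the arrays are called here by their group only.

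Of the mucins, Muc4 fell in the transgenic samples, on both of its bright probe sets. Muc4 encodes a large membrane-bound mucin with epidermal growth factor-like domains, whose rat counterpart binds the receptor ErbB2. On the probe set 1427398_at its signal was 516 and 424 on the transgenic arrays, against 1095 and 879.9 on the control arrays. The groups did not overlap, and the higher transgenic array lay well below the lower control array. The change was -1.04 ± 0.14 on the scale of log2(signal + 16) (SE, limma adjusted p = 0.0263 over all probe sets tested). On this scale a change of -1 is a halving, and changes of dim probe sets are understated.

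On the probe set 1438555_x_at the Muc4 signal was 1230.5 and 1093 on the transgenic arrays, against 1996 and 2049 on the control arrays. The control arrays nearly coincided here, and both transgenic arrays were lower. The change was -0.79 ± 0.11 (log2, SE; limma adjusted p = 0.0324). The suffix of this probe set marks probes that may also bind related sequences. A Muc4 probe set built on another sequence, 1432119_at, was dim and pointed the other way, at 14.7 and 5.36 on the transgenic arrays and at 1.68 and 3.81 on the control arrays. It lay below the filter on dim probe sets, at a signal of about 30, and was not tested.

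The Muc4 calls were 2 of the 7 mucin probe sets tested, where 0.0222% of all 27022 probe sets tested passed as lower. The members were chosen with earlier results of these data known, so this share is no test of the mucins as a group. With 1 residual degree of freedom in the fit, the calls ended in limma without the filter (adjusted p = 0.967 and 0.999) or without the intensity trend (0.905 for each), settings in which no probe set of the whole table passed. On data simulated with this design, more of the calls were false than the threshold of 0.05 allows in most runs, so the adjusted p-values may be too small. The simulated noise did not depend on the signal level, and the simulated control replicates differed less than the real ones, so the size of this error is not known here.

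The starts of 3 mucin genes whose brighter probe sets were lower on both transgenic arrays are shown with the motifs found in them, as RefSeq sequence of the build GRCm38.p6, from 250 bases before to 50 bases after the annotated start. They are written 5′ to 3′ on the strand of the gene. Capitals mark the TATA box TATAAA, the GC box GGGCGG and the KLF core CACCC on either strand, with overlapping matches counted separately. The windows are chr16:32735636-32735935 on the plus strand for Muc4, chr3:89228806-89229105 on the plus strand for Muc1 and chr16:32797386-32797685 on the minus strand for Muc20.
Muc4: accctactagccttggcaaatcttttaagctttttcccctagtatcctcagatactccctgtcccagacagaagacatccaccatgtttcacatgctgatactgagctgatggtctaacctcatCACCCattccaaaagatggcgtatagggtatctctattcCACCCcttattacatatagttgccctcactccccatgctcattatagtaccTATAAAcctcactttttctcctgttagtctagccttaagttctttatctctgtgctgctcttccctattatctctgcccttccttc
Muc1: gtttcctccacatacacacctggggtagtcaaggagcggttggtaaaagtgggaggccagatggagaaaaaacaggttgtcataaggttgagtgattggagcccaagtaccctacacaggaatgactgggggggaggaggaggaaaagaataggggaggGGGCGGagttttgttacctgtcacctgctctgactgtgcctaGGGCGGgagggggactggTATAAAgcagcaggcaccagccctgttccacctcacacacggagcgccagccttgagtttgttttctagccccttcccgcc
Muc20: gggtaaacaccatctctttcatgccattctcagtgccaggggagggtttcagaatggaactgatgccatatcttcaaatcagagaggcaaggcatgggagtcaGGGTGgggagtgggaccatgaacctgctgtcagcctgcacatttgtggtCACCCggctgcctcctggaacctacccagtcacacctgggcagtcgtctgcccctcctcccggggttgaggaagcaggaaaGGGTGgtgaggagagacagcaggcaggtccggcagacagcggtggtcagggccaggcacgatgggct
With positions counted from 0 at the annotated start, TATAAA began at -36 in Muc4 and at -31 in Muc1, and was not in the Muc20 window. The GC box, bound by Sp and KLF factors, occurred 2 times in Muc1 and 0 times in Muc4 and Muc20. The CACCC motif occurred 2 times in Muc4, 0 times in Muc1 and 3 times in Muc20. Muc15, also bright and lower on both transgenic arrays, had no promoter window in the sequences used. Muc13 and Muc2, which were dim and also lower on both transgenic arrays, are not shown. The Muc13 windows held none of these motifs, and the Muc2 window held all of them. Among 32851 such windows, the TATA box letters were present in 13.6%, the GC box in 35.7% and the CACCC motif in 57.5%. These matches are a description, and binding was not examined. Muc4 and Muc20 are direct neighbours on chromosome 16 in the RefSeq gene order.

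The other membrane-bound mucins with bright signals, Muc1, Muc15 and Muc20, were lower on both transgenic arrays without passing the test. Muc1, a mucin of most simple epithelia with a signalling cytoplasmic tail, had signals of 245 and 197 on the transgenic arrays, against 405 and 303 on the control arrays. The groups did not overlap, but the technical replicates of the control differed by -0.40 (second minus first, log2). The change was -0.63 ± 0.17 (log2, SE; limma unadjusted p = 0.00376, adjusted p = 0.393).

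Muc15, a membrane-bound mucin first described in cow milk, had signals of 1082 and 922 on the transgenic arrays, against 1254 and 1253 on the control arrays. Here the technical replicates coincided, and the transgenic arrays lay apart from each other, by -0.23 (second minus first, log2). The change was -0.32 ± 0.12 (log2, SE; limma unadjusted p = 0.0241, adjusted p = 0.625).

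Muc20, a membrane-bound mucin that in human cells interacts with the receptor Met, had signals of 176 and 179 on the transgenic arrays, against 257 and 198 on the control arrays. The transgenic arrays were close together and the control replicates were not, differing by -0.35 (log2), as much as the change of -0.32 ± 0.17 (log2, SE; limma adjusted p = 0.782). Without control replicate 1 the change was -0.15 and without control replicate 2 it was -0.50. Its second probe set, below the filter, overlapped between the groups, at 24.4 and 8.96 on the transgenic arrays and 23.8 and 34.8 on the control arrays.

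Muc13 and Muc16 gave low signals near the filter. For Muc13, a transmembrane mucin of the gut lining, the tested probe set stood at 36.7 and 44.7 on the transgenic arrays, against 66.3 and 52.9 on the control arrays, a change of -0.41 ± 0.32 (log2, SE; limma adjusted p = 0.876). A dimmer Muc13 probe set, not tested, had 6.73 and 5.55 on the transgenic arrays and 26.8 and 15.7 on the control arrays. Both Muc13 probe sets were thus lower on both transgenic arrays, at low signals.

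Muc16 encodes a very long membrane-bound mucin, whose human counterpart is the CA125 antigen and a main component of the corneal glycocalyx. Its signal was 44.1 and 36.6 on the transgenic arrays, against 17.5 and 36.3 on the control arrays. The groups touched, since the second control array nearly equalled the second transgenic array. The change was 0.42 ± 0.36 (log2, SE; limma adjusted p = 0.890), with 0.10 without control replicate 1 and 0.74 without control replicate 2. The control mean of 26.9 lay under the filter level, so this probe set was tested because of its transgenic mean of 40.3.

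**Figure D1:**
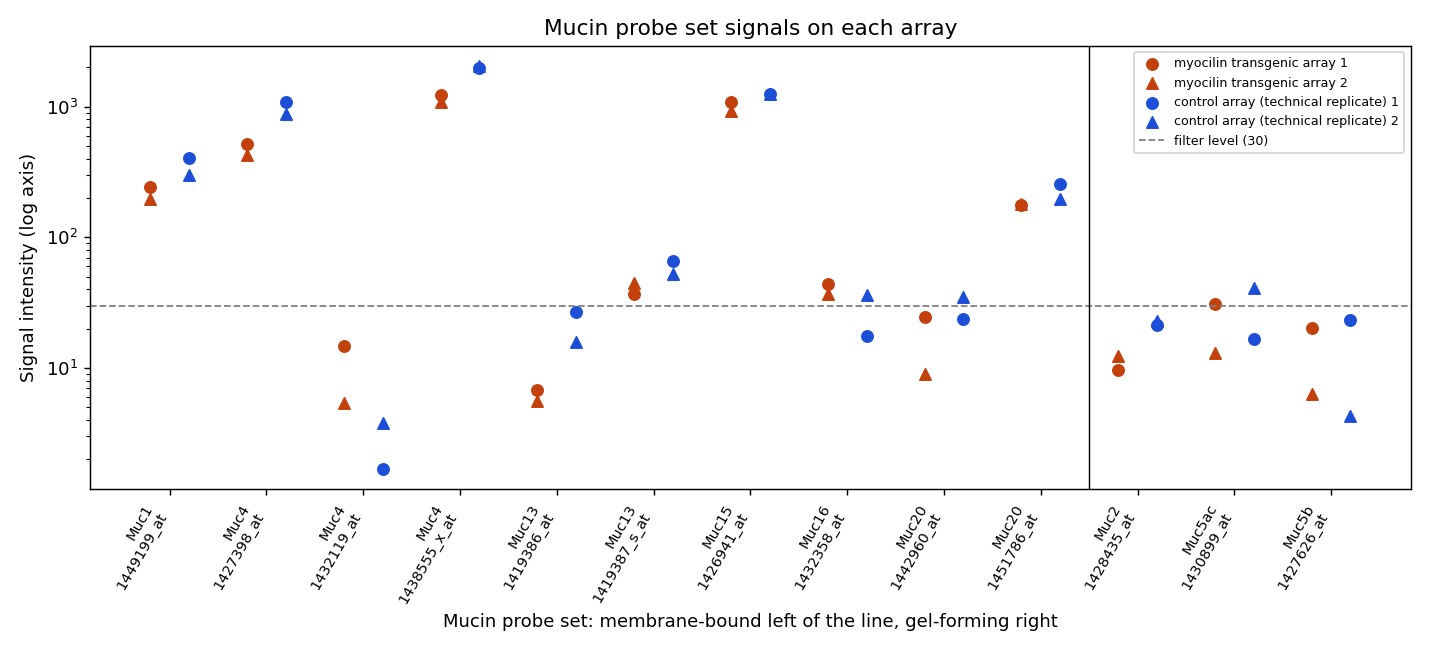
Signal intensity of each of the 13 mucin probe sets on a log axis, with the 2 transgenic arrays left of the 2 control arrays and a dashed line at the filter level of about 30. The bright probe sets of Muc1, Muc4, Muc15 and Muc20 are lower on both transgenic arrays, and the 3 gel-forming mucins lie around or below the filter level.

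All 3 gel-forming mucins lay below the filter on dim probe sets. Without that filter 0 of the 3 passed in limma, with unadjusted p of 0.203 for Muc2, 0.629 for Muc5ac and 0.977 for Muc5b (adjusted p = 0.999 for each). Muc5ac, the gel-forming mucin of conjunctival goblet cells, had signals of 30.7 and 13.0 on the transgenic arrays, against 16.8 and 41.1 on the control arrays. Its groups overlapped, and the technical replicates of the control differed by 0.80 (log2). Muc5b, a gel-forming mucin of airway and salivary glands, had 20.3 and 6.38 on the transgenic arrays, against 23.4 and 4.27 on the control arrays, which also overlapped.

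Muc2, the gel-forming mucin of intestinal goblet cells, had 9.60 and 12.4 on the transgenic arrays, against 21.2 and 22.9 on the control arrays. It was the gel-forming mucin whose groups did not overlap, with a difference of -0.50 (log2). Muc2, Muc5ac and Muc5b lie next to each other in the RefSeq gene order on chromosome 7. A dim signal does not show that a transcript is absent, since probe sets differ in how well they report a transcript.

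With each gene read by its brightest probe set, 5 of 6 membrane-bound mucins were below 0, with a median log2 change of -0.37 and a range from -0.79 to 0.42, the upper end being the dim Muc16. The median was -0.41 with transgenic array 1 alone and -0.37 with array 2 alone. Among all 12722 genes with a tested brightest probe set, 51.9% were below 0 and the median was -0.01. For the 3 gel-forming mucins the median was -0.24, with 0.11 with transgenic array 1 alone and -0.42 with array 2 alone, so its sign depended on the array. The difference between the classes was not tested, and dim gel-forming signals leave little to compare.

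Of the 7 mucin probe sets tested, 6 were lower on both transgenic arrays, where 23.6% of all probe sets tested were lower on both, and 24.4% of the 11373 with a mean signal over 150 in both groups. At an unadjusted limma p under 0.05 there were 4 of 7, all lower, where 2.92% of all probe sets tested were lower at that level. Probe sets of 1 gene are not independent, and Muc4 gave 2 of these 4. As the members were chosen with earlier results of these data known, these counts are a description and not a test. Of the 7, the gap between the control replicates was larger than the change for Muc16 and Muc20.

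**Figure D2:**
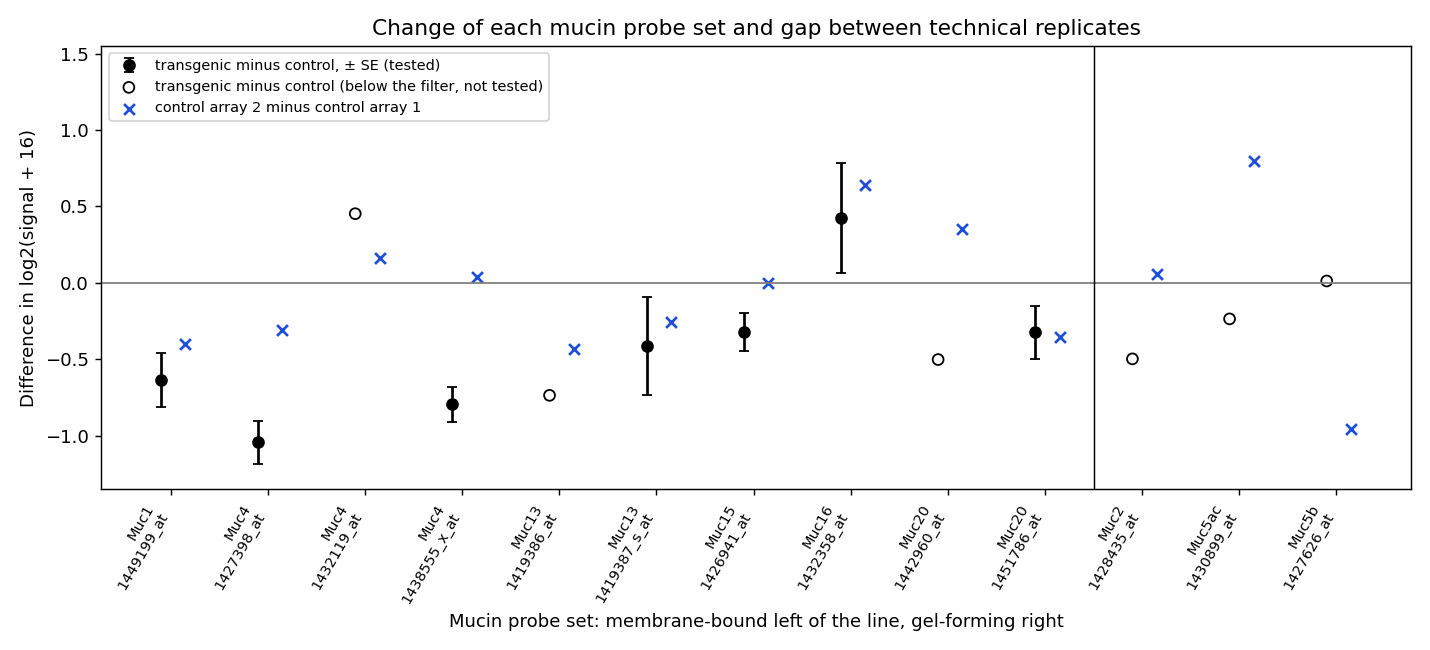
Change of each mucin probe set in log2(signal + 16), transgenic minus control, with the SE where it was tested, beside the difference between the 2 technical control replicates. The Muc4 changes of -1.04 and -0.79 exceed the replicate gaps of -0.31 and 0.04, whereas for Muc16 and Muc20 the gaps of 0.64 and -0.35 are larger than the change.

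Markers of the surface epithelia that carry mucins had medians below 0. For the cornea the median was near that of all genes in the main setting, and its size depended on the scaling. Of 13 corneal epithelium markers tested, 8 were below 0 and 5 above, with a median of -0.04 (log2; -0.01 after median centring). Among all genes with a tested brightest probe set, 51.9% were below 0 and the median was -0.01. After quantile normalization 12 of the 13 were below 0, with a median of -0.20. Of the 13, 0 passed in limma, while 4 were lower and 1 higher at an unadjusted p under 0.05, where 2.92% of all probe sets tested were lower and 4.14% higher at that level. Their summed signal was 75066 to 79224 on the transgenic arrays and 76045 to 76962 on the control arrays. The higher one was the corneal keratin Krt12, at 13020.3 and 13173 on the transgenic arrays, against 11441 and 10972 on the control arrays. Its change was 0.22 ± 0.09 (log2, SE). Cdh1, the epithelial cadherin, was lower on both transgenic arrays, at 1714 and 1521 against 2436 and 2331 on the control arrays, a change of -0.56 ± 0.11 (log2, SE; limma adjusted p = 0.212). Set against the median of the corneal list, the Muc4 changes were -1.0 and -0.76, given as a description. On the same footing Muc1, Muc13, Muc15 and Muc20 stood at -0.60, -0.38, -0.29 and -0.29, and Muc16 at 0.46. Fewer cells of a type and less RNA per cell cannot be told apart in such bulk samples.

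Conjunctival epithelium markers were below 0 for 9 of 10 genes, with a median of -0.19 (log2; -0.27 to -0.13 over all settings). Their summed signal was 30154 to 30855 on the transgenic arrays and 32961 to 34704 on the control arrays, and 0 passed in limma, while 3 were lower and 1 higher at an unadjusted p under 0.05, against the same 2.92% and 4.14%. The higher one was Krt18, a keratin of simple epithelia, at 0.29 ± 0.11 (log2, SE; limma adjusted p = 0.623). The keratins Krt19, Krt8 and Krt4 of this list stood at -0.45, -0.44 and -0.36, with limma adjusted p between 0.253 and 0.397. On further tested probe sets the changes were larger, at -0.63 and -0.51 for Krt8 and at -0.55 for Krt4 (limma adjusted p between 0.166 and 0.419). Set against this list's median, the Muc4 changes were -0.85 and -0.60. Those of Muc1, Muc13, Muc15 and Muc20 were -0.44, -0.22, -0.13 and -0.13, and that of Muc16 was 0.61. Of 7 goblet cell markers 3 were tested and 0 passed in limma, while 0 had an unadjusted p under 0.05. The summed signal of the 7 was 501 to 506 on the transgenic arrays and 565 to 596 on the control arrays, with Clca1 and Tff2 each at about 17 or less on every array. What part these marker differences have in the mucin values was not tested.

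Markers of several other tissues of the eye had higher signals on the transgenic arrays, but those of rods did not. Of the dim rod photoreceptor markers 3 were tested, 2 of them below 0, with a median of -0.27 (log2) and 0 calls in limma. Of these 3, Crx had a mean signal of 28.0 on the transgenic arrays, under the filter level, and of 58.8 on the control arrays. It was thus tested because of the control arrays. A second Crx probe set stood at 0.22 (log2), with groups that overlapped. The rod count and median are therefore not read as a result. The summed signal of the rod list was 283 to 329 on the transgenic arrays and 341 to 386 on the control arrays. All tested markers were above 0 for pigment epithelium and melanocytes (9 of 9, median 0.44) and skeletal muscle (8 of 8, median 0.51), and 6 of 7 were for corneal stroma and sclera (median 0.28), all on the log2 scale. After quantile normalization the stroma median was 0.15, and 2 of the 9 pigment markers were below 0. Those that rose past the threshold were Rpe65 and Rgr of the pigment epithelium, Mb, Myl1 and Mylpf of muscle, Cryaa, Cryba1 and Crygb of the lens and Kera of the stroma, where 0.0555% of all probe sets tested passed as higher. The 3 lens genes had mean signals of 101, 145 and 109.8 on the transgenic arrays and of 13.6, 25.9 and 19.2 on the control arrays, so they were tested because of the transgenic arrays, and the lens list is given no count or median here. The summed signal of the muscle list was 18941 to 19144 on the transgenic arrays and 11097 to 11445 on the control arrays. For the stroma list it was 28034 to 28121 on the transgenic arrays and 20930 to 22119 on the control arrays. For the pigment list it was 36673 to 39621 on the transgenic arrays and 31737 to 31782 on the control arrays. The lens list summed to 3278 to 3308 on the transgenic arrays and 2351 to 2456 on the control arrays. Most of each sum was Cryab, at 2819 and 2792 on the transgenic arrays and at 2378 and 2250 on the control arrays. Every other lens gene of the list was at 32.5 or less on the control arrays. Mip, a lens membrane channel, was at 11.8 or less on every array. What part these tissue lists have in the mucin values was not tested.

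Genes that act on or with mucins gave no call. Among 14 genes listed as partners of membrane mucins 13 were tested, 11 of them below 0, with a median of -0.18 (log2), which was -0.08 without transgenic replicate 1 and -0.10 without control replicate 1. Of the 13, 0 passed in limma, while 3 were lower at an unadjusted p under 0.05, where the share of all probe sets was 2.92%. Erbb3, a receptor of the ErbB family, had 555 and 538 on the transgenic arrays, against 768 and 878 on the control arrays, a change of -0.57 ± 0.12 (log2, SE; limma adjusted p = 0.231). Jup, the junction protein plakoglobin, stood at -0.50 ± 0.13 (adjusted p = 0.372), and Erbb2, the receptor that the rat Muc4 protein binds, at -0.32 ± 0.26 (adjusted p = 0.882), with groups that overlapped.

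The enzymes of mucin-type O-glycosylation were divided, with 12 of 22 tested genes below 0 and a median of -0.04 (log2). Without transgenic replicate 1 the median was -0.13, with 16 of 22 below 0, and without control replicate 1 it was -0.11. None passed in limma (0 of 22), while 3 were lower and 1 higher at an unadjusted p under 0.05, against 2.92% and 4.14% of all probe sets tested. Galnt7 and Galnt4, transferases that extend partly glycosylated mucin stretches, stood at -0.43 ± 0.11 and -0.37 ± 0.11, and C1galt1c1, the chaperone of the core 1 synthase, at 0.37 ± 0.13 (log2, SE), where limma gave adjusted p from 0.363 to 0.539. On their remaining probe sets the changes were smaller, at -0.35 and -0.21 for Galnt7 (unadjusted p = 0.0269 and 0.119 in limma) and at -0.16 for Galnt4 (unadjusted p = 0.343). Of 19 goblet cell and mucin secretion genes 8 were tested, 4 above and 4 below 0, and 0 passed in limma, while 1 was higher at an unadjusted p under 0.05. Fcgbp, a mucus protein of goblet cells, had 62.7 and 19.6 on the transgenic arrays and 78.8 and 65.2 on the control arrays (limma adjusted p = 0.805).

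Epithelial transcription factors were below 0 for 13 of 14 tested genes, with a median of -0.25 (log2). None passed in limma (0 of 14), while 6 were lower at an unadjusted p under 0.05, where the share of all probe sets tested was 2.92%. Zfp750, a factor of epidermal differentiation, had 247 and 265 on the transgenic arrays, against 357 and 448 on the control arrays, a change of -0.61 ± 0.15 (log2, SE; limma adjusted p = 0.317). Grhl1, a grainyhead factor of epithelial junctions, stood at -0.48 ± 0.18 (adjusted p = 0.587) and Klf5, a factor of surface epithelia, at -0.39 ± 0.14 (adjusted p = 0.571), with a second Klf5 probe set at -0.17 (limma unadjusted p = 0.286). Of the 14, 10 were lower on both transgenic arrays, where 23.6% of all probe sets tested were, and 24.4% of those with a mean signal over 150 in both groups. This list too was chosen with earlier results of these data known, so the count is a description.

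**Figure D3:**
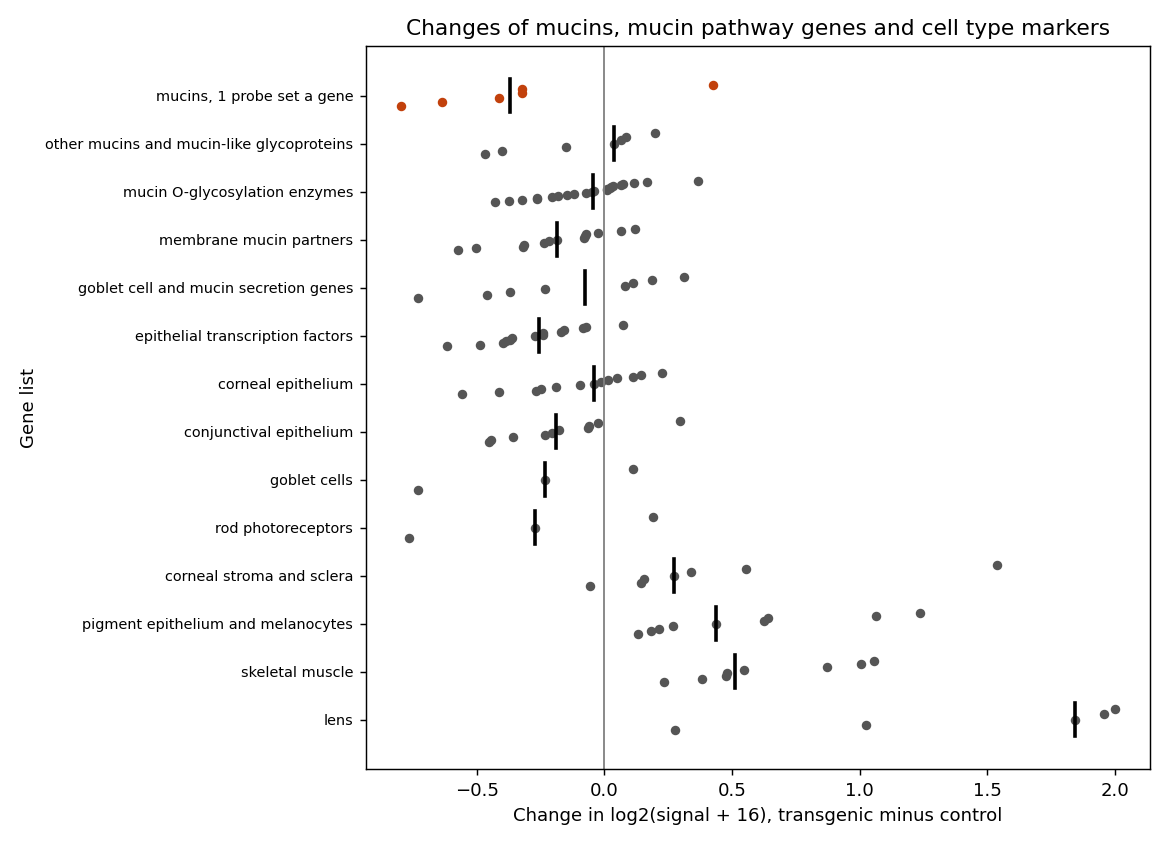
Change in log2(signal + 16), transgenic minus control, of each tested gene by its brightest probe set, with the membrane-bound mucins in colour, gene lists below them in grey and list medians as black bars. The membrane-bound mucins have a median of -0.37, and the corneal and conjunctival epithelium lists have medians of -0.04 and -0.19 (-0.20 and -0.27 after quantile normalization). The lists of stroma, pigment and muscle have medians above 0. Of the 5 lens genes drawn, 4 had control means under the filter level, so the lens bar is not read as a result.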

How the data were processed

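Signal intensities deposited by the authors, 1 for each probe set and array, were used as they are. The software that made them is not given in the sources used here. Values were transformed as log2(signal + 16). Array controls (64 probe sets) were left out, and those whose mean log2 value exceeded the 40th percentile were tested with limma 3.58.1 in R 4.3.3: control arrays averaged into 1 sample, empirical Bayes moderation along the intensity trend (1 residual and 10.3 prior degrees of freedom), two-sided tests and Benjamini-Hochberg adjustment over these 27022 probe sets, with a threshold of 0.05. Variation of the single control sample was taken to equal that of the transgenic ones. The model was tested on simulated data with known changes. Genes were named from the platform annotation, where 34945 of 45037 probe sets other than array controls had 1 symbol, 932 several and 9160 none; no mucin symbol changed through its gene identifier. A promoter window was found for 6 of the 9 genes.

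The members and lists were chosen with earlier results of these data known. Each list gene was read by its brightest probe set. Named were all members, genes past the threshold, in each list up to 3 genes with the largest change in size and, for marker lists, the brightest and dimmest, of which a selection is printed; for called members, the 4 probe sets with the nearest pattern were also named. The 14 alternatives cover scaling, pseudocount, filter, sample structure, moderation and leaving out each array; for class medians the mean over probe sets was added to these.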

Additional observations from a re-analysis of the deposited data

How the results depend on the processing

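Both Muc4 calls held in limma after quantile normalization, median centring, pseudocounts of 1 and 64, the filter at the 60th percentile, robust moderation, all 4 arrays as separate samples, the replicate block and without either control array. The number of mucin probe sets past the threshold was 0 in limma without the filter and 0 without the trend (where 4 and 3 had an unadjusted p under 0.05), and 4 with the replicate block, where Muc1 (-0.63, adjusted p = 0.000583) and Muc15 (-0.32, adjusted p = 0.00554) also passed. The labels do not say that the replicate numbers mark a shared animal or batch, and the deviations of same-numbered arrays correlated at 0.0955 over the probe sets tested. In all, 21 probe sets passed, 15 higher and 6 lower, against 39 after quantile normalization (20 higher, 19 lower), 56 after median centring (47 higher, 9 lower), 135 with 4 separate arrays, 1740 with the replicate block, and 0 without the filter or the trend (where 2181 and 1059 had an unadjusted p under 0.05). Leaving out a control array gave 34 to 42. Without a transgenic array there was no test; the changes of Muc4 were then -1.18 to -0.91 on 1427398_at and -0.88 to -0.71 on 1438555_x_at. The median of the membrane-bound mucins was -0.34 after median centring, -0.44 at a pseudocount of 1, -0.29 at 64, -0.44 when the probe sets of each gene were averaged, and -0.52 to -0.30 with 1 array left out. That of the gel-forming mucins ran from -0.53 to 0.11 with 1 array left out. All tested mucin probe sets kept their sign in every setting run, and the cause of the lost calls was not tested.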

Other observations

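By distance of centred log2 values over the 4 arrays, the probe sets of other genes nearest to 1438555_x_at of Muc4 belonged to Tsc22d3, a glucocorticoid-induced gene, Entpd6, a nucleoside diphosphatase, Slc12a5, a potassium chloride cotransporter, and Eppk1, which encodes epiplakin of epithelial cells, at distances from 0.0515 to 0.102. Their changes were -0.84, -0.85, -0.78 and -0.76 (log2), and none passed in limma (adjusted p between 0.0570 and 0.470). Tsc22d3 had 484 and 430.4 on the transgenic arrays, against 818 and 847 on the control arrays. Nearest to 1427398_at were Tln2, Capn5, Tcl1b1 and Eme2, at distances from 0.183 to 0.234, of which Capn5, a calpain gene, had signals over 150, with 258 and 188 on the transgenic arrays and 479.99 and 358 on the control arrays (-0.87, limma adjusted p = 0.247). The 2 sets of genes do not overlap. With 4 arrays, of which the 2 control arrays are 1 sample, such likeness is a description.

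Among 17 further mucins and mucin-like glycoproteins, 12 had a probe set and 7 were tested, with 4 above and 3 below 0, a median log2 change of 0.04 (-0.04 to 0.07 over all settings) and 0 calls in limma, while 0 had an unadjusted p under 0.05. Podxl, podocalyxin of vessels and kidney, had 129 and 99.8 on the transgenic arrays, against 162 and 164 on the control arrays (-0.47, limma adjusted p = 0.729), while a dimmer Podxl probe set stood at 0.08 (unadjusted p = 0.831), with groups that overlapped. Pdpn, podoplanin, was higher on both transgenic arrays, at 1455 and 1409 against 1255 and 1238 on the control arrays (0.20, adjusted p = 0.782).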
